A study of Mus musculus with 20 samples.

Results

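The genes described here are 33 type I interferon response genes, of 54532 genes in the count table: antiviral effectors, nucleic acid sensors and the transcription factors that control them. They were chosen by symbol, and all 33 were found through their Ensembl identifiers. RNA was sequenced in bulk from the aorta of C57BL/6J mice that received water or β-aminopropionitrile (BAPN) for 1 week, from the ascending or the descending part. BAPN irreversibly blocks lysyl oxidases, which join elastin and collagen chains by cross-links. The 20 libraries form 4 groups of 5: ascending water, ascending BAPN, descending water and descending BAPN. Age, sex and BAPN dose are not given in the labels used here. The labels number the libraries 1 to 5 in each group but do not say whether they came from separate mice, so the p-values measure only the spread between these samples.

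Type I interferons are secreted cytokines that bind one receptor, made of Ifnar1 and Ifnar2, on nearly every cell. The receptor's kinases Jak1 and Tyk2 activate a complex that holds Stat2 and Irf9 and binds the interferon-stimulated response element (ISRE) in the promoters of target genes. Irf7 is both a target and an inducer of interferon genes, and Usp18, which removes Isg15 from proteins, also binds the receptor and limits its signalling. Many of these genes are expressed at a low basal level in vessel wall without infection. Interferon gamma, a type II interferon, uses another receptor, and several of its targets overlap with those of type I interferon.

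Promoter letters are shown for the 4 Ifit genes, which lie side by side, and for 2 other targets. A window from 250 bases before to 50 bases after the start was matched in RefSeq (GRCm38.p6) for 23 of the 33 genes. The ISRE was searched as GAAA, any 2 bases and GAAA, on both strands (TTTC, any 2 bases and TTTC on the other), and overlapping matches were counted. It occurred in 14 of the 27 windows of these genes (13 genes), against 3.44% of all 32851 windows of the same length. The gamma-activated site, searched as TTC, any 3 bases and GAA, which reads the same on both strands, occurred in 4 of the 27 windows (Ifit2, Oas1a, Ifi35 and Bst2), against 8.30% of all windows. A match is a description of the letters, not evidence of binding. Each line gives 90 bases upstream of the start, 5′ to 3′ on the gene's strand, with ISRE matches in capitals.
Ifit3: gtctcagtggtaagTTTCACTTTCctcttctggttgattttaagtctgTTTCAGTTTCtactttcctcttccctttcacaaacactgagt
Ifit3b: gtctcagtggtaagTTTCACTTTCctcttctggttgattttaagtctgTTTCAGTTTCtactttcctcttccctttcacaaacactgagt
Ifit1: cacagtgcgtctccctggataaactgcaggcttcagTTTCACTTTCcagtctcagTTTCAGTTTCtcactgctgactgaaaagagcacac
Ifit2: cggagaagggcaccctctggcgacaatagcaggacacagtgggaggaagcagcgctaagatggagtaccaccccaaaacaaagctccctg
Isg15: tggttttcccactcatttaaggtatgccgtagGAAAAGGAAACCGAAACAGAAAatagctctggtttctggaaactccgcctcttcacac
Rsad2: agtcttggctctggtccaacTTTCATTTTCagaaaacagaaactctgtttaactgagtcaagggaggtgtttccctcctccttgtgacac
These stretches lie at chr19:34583359-34583448, chr19:34607755-34607844, chr19:34640749-34640838 and chr19:34550554-34550643 on the plus strand and at chr4:156200839-156200928 and chr12:26456503-26456592 on the minus strand. The Ifit3 and Ifit3b stretches were identical in 90 of 90 bases, and over the 218 upstream bases that could be aligned without gaps 188 (86.2%) were the same. Both carried 2 ISRE matches, as did Ifit1. Isg15 had 3 overlapping matches, Rsad2 had 1, and Ifit2 had no match in its windows. Irf7, Irf9, Oasl1, Oasl2, Xaf1, Lgals3bp, Ifi44, Cmpk2 and Ifi35 had no match in their windows either. A link between matches and the direction of a difference was not tested.

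Library totals ran from 15.7 to 23.3 M counts (M for 1e6). Of the 33 genes, 32 passed the filter on low counts. The exception was Oas3, which makes an oligoadenylate synthetase and had 107 counts over all libraries. Levels are CPM (counts per 1e6 counts, scaled by edgeR), and differences are log2 ratios from 1 edgeR quasi-likelihood fit over 15543 genes. Calls rest on Benjamini-Hochberg adjustment across all of these genes, with adjusted p under 0.05. Summed levels of smooth muscle markers were 18720 to 20650 CPM in ascending water, 21840 to 24240 in ascending BAPN, 18750 to 21340 in descending water and 22340 to 24800 in descending BAPN, so all groups held the main cell type of the aortic wall.

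Single libraries stood apart before any comparison was made. In descending BAPN, library 2 held the highest level of its group for 24 of the 32 tested genes, and its median distance from the group median was 0.44 on the log2(CPM + 0.5) scale. It was the highest for 19.5% of all tested genes. In ascending BAPN, library 4 held the lowest level for 23 of the 32, with a median distance of -0.21, and was farthest from it for Oasl1, Zbp1, Ifit1, Mx1 and Rsad2. Over all tested genes ascending BAPN 4 was the lowest for 20.6%. Descending water 2 was the highest for 25 of the 32, with a median distance of 0.26, and ascending water 4 was the highest for 16. Over all tested genes their shares were 19.3% and 17.5%. The map of distances by library shows these libraries as columns of mostly one colour. Beside this, the levels of 33 pseudogenes (genes with -ps in the symbol) part the libraries into 2 sets that cross the groups: all of ascending BAPN, ascending water 4 and 5 and descending water 1, 2 and 5 have higher levels, and the others lower. What the sets stand for is not given in the labels, and in the 2 BAPN groups set and region cannot be told apart.

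**Figure D1:**
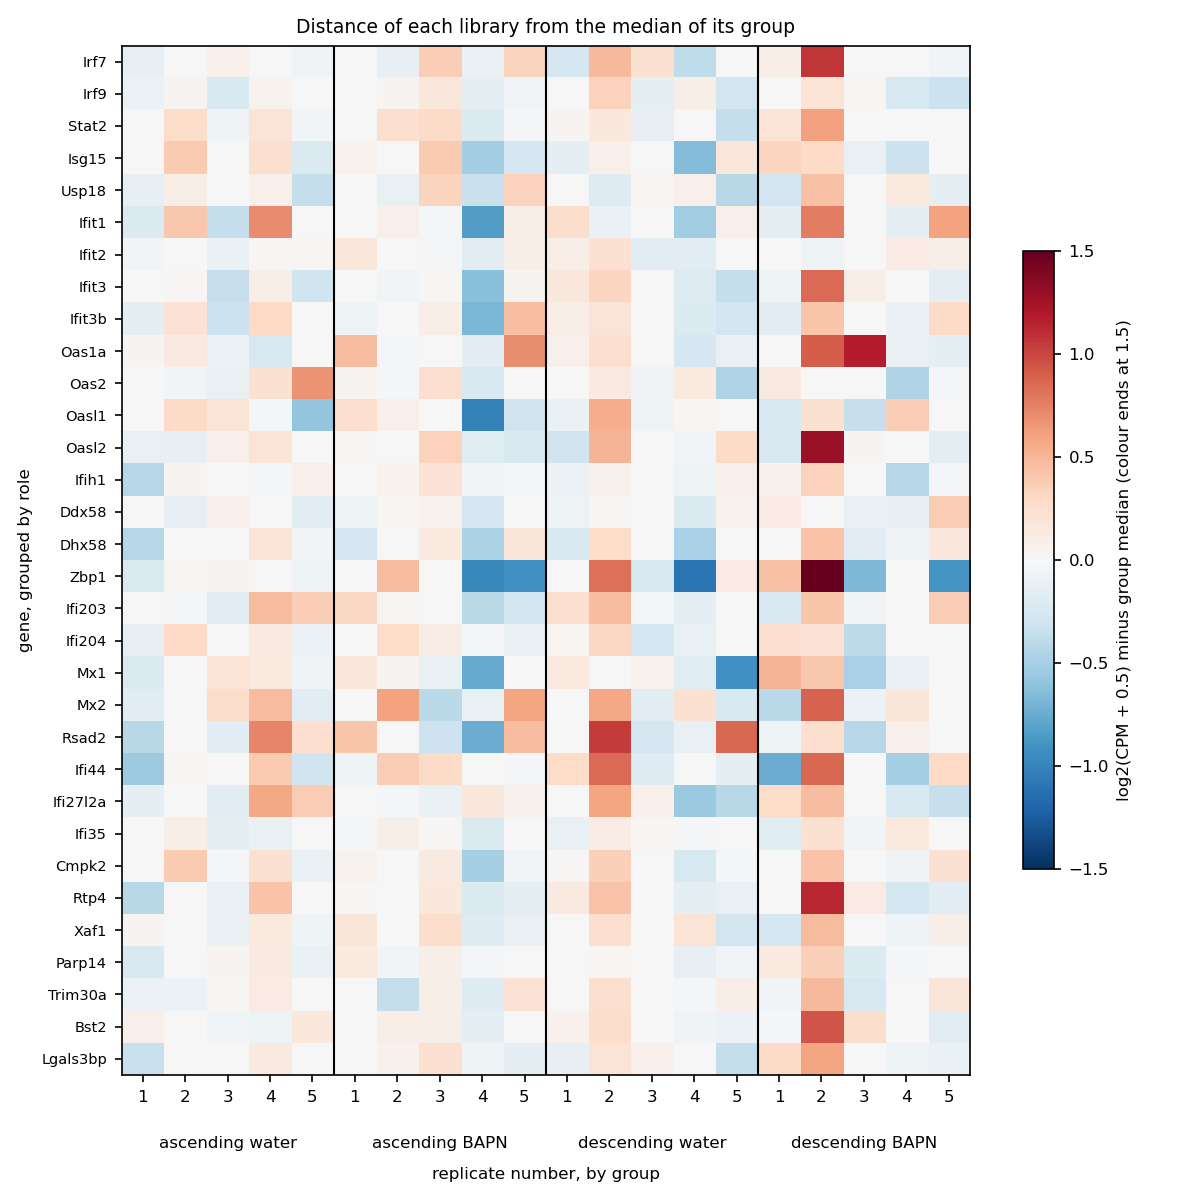
Distance of each library (columns, by replicate number within each of the 4 groups) from the median of its own group, for the 32 tested genes (rows, by role), as log2(CPM + 0.5), with red above and blue below the median and colours ending at 1.5. The column of descending BAPN 2 is red in most rows (highest of its group for 24 of 32 genes), and that of ascending BAPN 4 is mostly blue (lowest for 23).

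Per kilobase of exon, over all libraries, the highest levels were those of Ifi27l2a, which encodes a small interferon-inducible membrane protein, at 51.9 CPM per kb, and Bst2 (tetherin, which holds enveloped virus at the cell surface) at 36.2. Ifit3 and Ifit2, which encode RNA-binding proteins with tetratricopeptide repeats, followed at 7.44 and 6.91. Isg15, a ubiquitin-like modifier, stood at 5.38 and its protease gene Usp18 at 0.9403 CPM per kb. The factors Irf9 and Stat2 were at 4.23 and 4.13. Of the sensors, Ddx58 (RIG-I, which detects viral RNA ends) was at 3.56 and Ifi204, a DNA sensor, at 1.38. The oligoadenylate synthetase family was led by Oasl2 (2.08) and Oas1a (0.818). The Mx GTPase genes were lower than these, with Mx2 at 0.418 and Mx1 at 0.177 CPM per kb. Below Mx2 lay also Ifi44 (0.202), Oasl1 (0.176) and Oas3 (0.0409). As a description of spread, 22 of the 32 tested genes had a biological coefficient of variation above the trend for their level, against 30.02% of all genes.

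In the ascending aorta, 2 of the 32 genes were lower after BAPN and none was higher: Ifit3b and Ifit3. Over all genes tested 6.34% were called (3.44% higher and 2.91% lower), and 2 of 32 is near that share. The median log2 difference of the 32 was -0.22, against -0.01 over all genes tested, and 27 of the 32 were negative, while 48.6% of all genes were positive. Because RNA was taken from whole tissue, fewer cells of a type and less RNA per cell cannot be told apart.

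Ifit3b (ENSMUSG00000062488, GRCm38 chromosome 19, 34607970 to 34613401, plus strand), a close copy of Ifit3, had 5.23, 6.78, 4.52, 7.25 and 5.78 CPM in ascending water and 2.54, 2.69, 2.93, 1.49 and 3.86 in ascending BAPN. Every BAPN library lay below every water library. The mean went from 5.91 (SD 1.11) CPM under water down to 2.700 (SD 0.849) under BAPN, lower by a factor of 2.19, with log2 -1.13 (SE 0.19, edgeR adjusted p = 0.000469). Ifit3 (ENSMUSG00000074896, GRCm38 chromosome 19, 34583531 to 34588731, plus strand) had 21.4, 21.7, 16.7, 23.1 and 17.4 CPM under water and 13.98, 13.6, 14.2, 8.88 and 14.4 under BAPN. Here too the groups did not overlap, and ascending BAPN 4 was the lowest library. Its difference was log2 -0.62 (SE 0.16, edgeR adjusted p = 0.0184). The Ifit3 call depended on ascending BAPN 4 (adjusted p = 0.0624 in its absence) and on ascending water 4 (0.0528), while that of Ifit3b held on leaving out each of the 20 libraries. The 2 genes share sequence: 31.7% of 100-base windows in Ifit3 transcripts and 27.4% of those in Ifit3b occur in the other, so reads from those stretches could be split or dropped between them and the 2 are not independent measurements. Smaller shares of such windows occur elsewhere in the transcriptome for Ifi204 (10.7%), Rtp4 (9.28%), Trim30a (4.41%) and Ifit1 (3.29%), whose levels are uncertain to that extent.

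The other Ifit genes did not pass the test. Ifit1, which binds viral RNA that lacks cap methylation, had 5.38, 8.55, 4.85, 10.7 and 6.33 CPM under water and 5.72, 6.05, 5.64, 2.98 and 6.16 under BAPN, log2 -0.42 (SE 0.23, edgeR adjusted p = 0.302). Ifit2 stood on the other side, at 25.9, 26.7, 24.9, 27.1 and 27.3 against 33.5, 29.9, 29.3, 26.8 and 31.9, log2 0.20 (SE 0.07, edgeR adjusted p = 0.106). None of the 3 factors was called: Irf7 was -0.37 (SE 0.18, adjusted p = 0.257), Stat2 -0.24 (SE 0.12, adjusted p = 0.244) and Irf9 -0.20 (SE 0.10, adjusted p = 0.266). Of the 6 sensors, 5 were negative. Ddx58 had no overlap between groups, at 29.9, 27.5, 31.6, 30.1 and 26.8 against 24.3, 26.3, 26.6, 21.6 and 25.7, yet log2 -0.23 (SE 0.08, edgeR adjusted p = 0.106) missed the threshold. Of the 32 genes 3 had lower libraries with no overlap (Ddx58, Ifit3 and Ifit3b), against 3.31% of all genes tested, and none had higher libraries with no overlap (4.2% of all genes). Isg15 and Usp18 lay near 0, at -0.03 (SE 0.18) and -0.04 (SE 0.18). Of the 11 other effectors 9 were negative, from -0.63 (Ifi44) upward, and none was called. Within the libraries of the higher pseudogene set (ascending water 4 and 5 against all 5 of ascending BAPN) 5 of the genes were called lower: Ifit3b, Ifit3, Ifi27l2a (-0.58, SE 0.08), Rtp4 (-0.66, SE 0.16) and Lgals3bp (-0.36, SE 0.09). That fit called 3.09% of all genes. Its water arm is 2 libraries, of which ascending water 4 is the one highest for 16 of the 32, and Ifi27l2a had 47.3 and 41.3 CPM in them against a group median of 31.5.

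**Figure D2:**
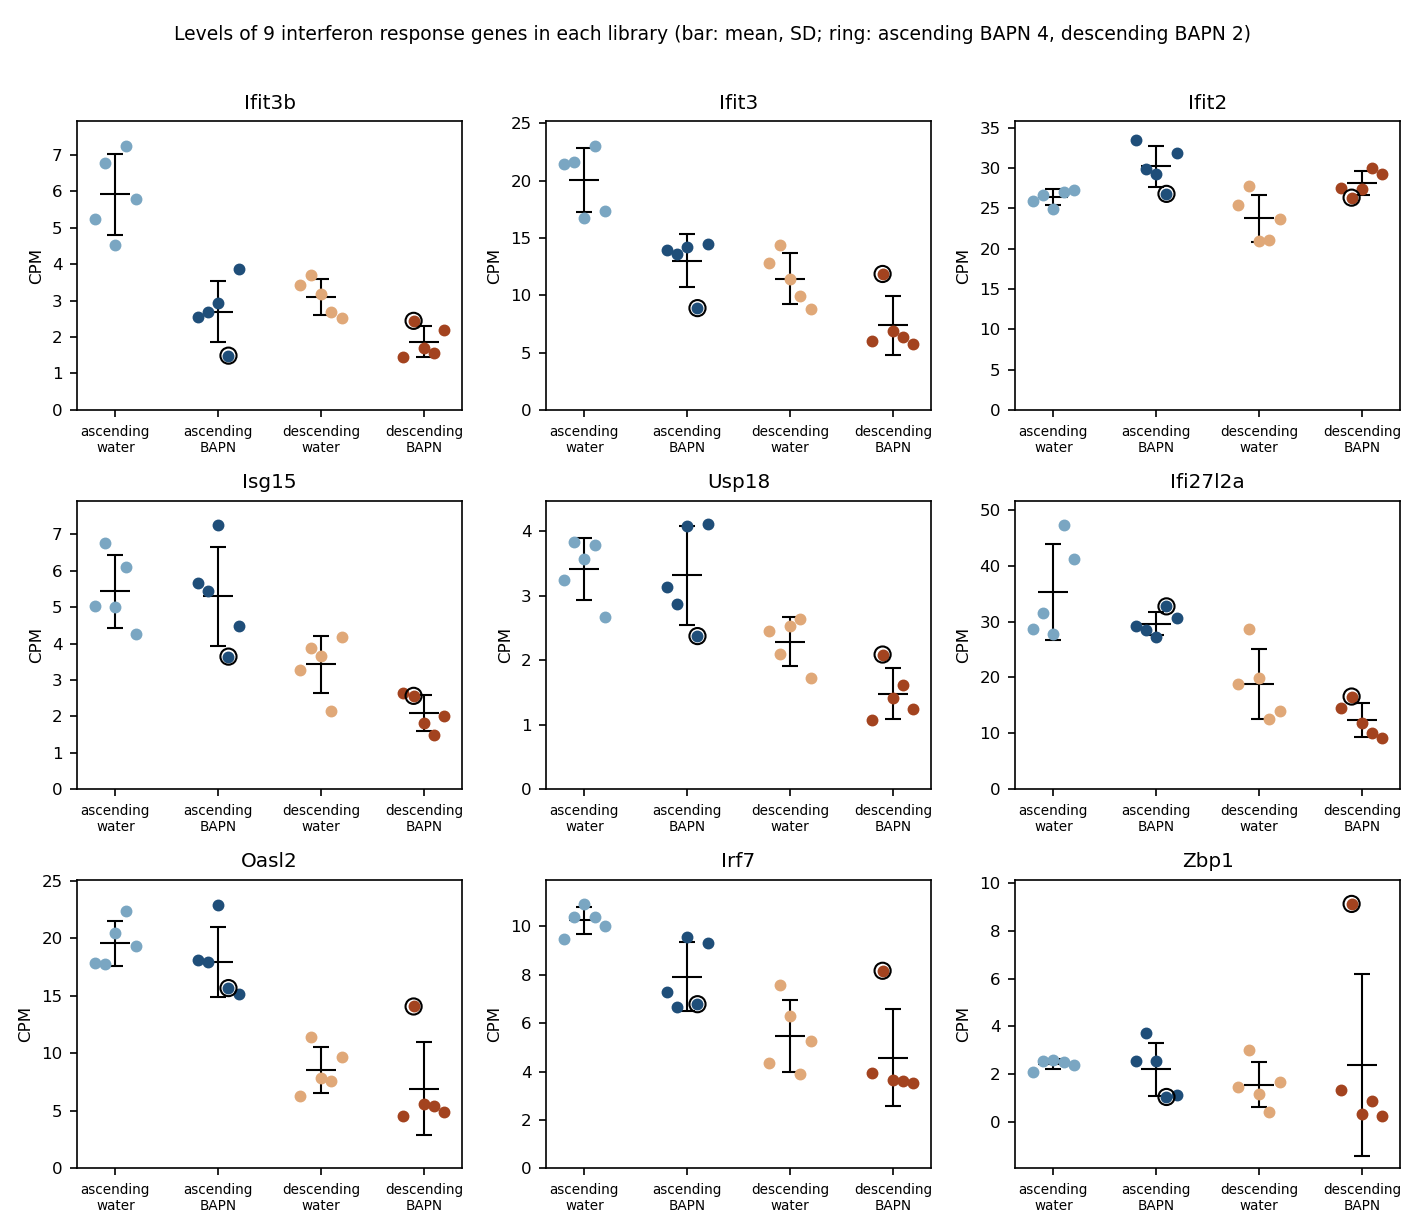
Level in CPM (vertical axes, each with its own scale) of 9 of the genes in each library of the 4 groups, with bars for the mean and SD of 5 libraries and rings on ascending BAPN 4 and descending BAPN 2. For Ifit3b the 5 ascending BAPN points lie below the 5 ascending water points, and for Zbp1 the ringed descending BAPN library (9.12 CPM) lies far above the other 4.

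In the descending aorta, 5 of the 32 genes were lower after BAPN (Ifit3, Ifit3b, Isg15, Usp18 and Ifi27l2a) and 1 was higher (Ifit2). Over all genes 10.7% were called (6.18% higher and 4.54% lower). The median log2 difference of the 32 was -0.26, against -0.0003 over all genes, and 28 of the 32 were negative. Under upper-quartile scaling the split over all genes turned from 961 higher and 706 lower to 706 higher and 874 lower, the same 5 genes were lower and Ifit2 was no longer called.

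Ifit3 had 12.8, 14.4, 11.4, 9.93 and 8.77 CPM in descending water and 6.05, 11.9, 6.86, 6.37 and 5.71 in descending BAPN. In the BAPN group 4 libraries were below all water libraries, and library 2 was among the water values. The difference was log2 -0.65 (SE 0.18, edgeR adjusted p = 0.018). Ifit3b had 3.43, 3.69, 3.17, 2.68 and 2.52 against 1.46, 2.44, 1.699, 1.55 and 2.19 CPM, log2 -0.73 (SE 0.21, edgeR adjusted p = 0.0266). It was the 1 gene of the 32 whose groups did not overlap, against 3.27% of all genes lower and 4.1% higher with no overlap.

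Isg15 (ENSMUSG00000035692, GRCm38 chromosome 4, 156199424 to 156200818, minus strand) had 3.28, 3.88, 3.65, 2.15 and 4.17 CPM under water and 2.63, 2.56, 1.82, 1.49 and 1.999 under BAPN, log2 -0.70 (SE 0.21, edgeR adjusted p = 0.0331). Descending water 4 lay among the BAPN libraries. Usp18 (ENSMUSG00000030107, GRCm38 chromosome 6, 121245906 to 121270917, plus strand) had 2.46, 2.09, 2.53, 2.63 and 1.72 against 1.06, 2.09, 1.41, 1.61 and 1.24 CPM, log2 -0.64 (SE 0.21, edgeR adjusted p = 0.0463). Its groups overlapped through descending BAPN 2. Ifi27l2a (ENSMUSG00000079017, GRCm38 chromosome 12, 103442167 to 103443680, minus strand) had 18.8, 28.6, 19.9, 12.6 and 14.1 against 14.5, 16.6, 11.9, 10.1 and 9.23 CPM, log2 -0.60 (SE 0.19, edgeR adjusted p = 0.0418). Its water libraries 4 and 5 fell among the BAPN values.

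Ifit2 (ENSMUSG00000045932, GRCm38 chromosome 19, 34550694 to 34576419, plus strand), whose protein binds RNA with the other Ifit proteins and is linked to cell death, moved the other way. It had 25.5, 27.8, 20.96, 21.1 and 23.7 CPM in descending water and 27.6, 26.3, 27.4, 30.1 and 29.3 in descending BAPN, log2 0.24 (SE 0.07, edgeR adjusted p = 0.0315), a 1.18-fold higher level. The groups overlapped at descending water 2. With a term for the pseudogene set its difference was 0.35 (SE 0.08, adjusted p = 0.00508), and within the lower set 0.41 (SE 0.09, adjusted p = 0.0204). In that lower set (descending water 3 and 4 against all 5 of descending BAPN) none of the 31 genes tested was called lower, where 2.87% of all genes were called. Ifit3 was -0.54 (SE 0.23), Ifit3b was -0.65 (SE 0.26), Isg15 -0.47 (SE 0.29) and Usp18 -0.81 (SE 0.29), with adjusted p from 0.174 (Usp18) to 0.478 (Isg15). With the set term the lower calls fell from 5 to 1, Usp18 at -0.76 (SE 0.23, adjusted p = 0.0446), where 7.24% of all genes were called. The differences of the other 4 were then -0.59 for Ifit3 (SE 0.20), -0.61 for Ifit3b (SE 0.24), -0.63 for Isg15 (SE 0.25) and -0.30 for Ifi27l2a (SE 0.19), with adjusted p of 0.0821, 0.137, 0.131 and 0.379.

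None of the 6 calls held on leaving out each of the 20 libraries. Usp18 was lost in 14 of the 20, Isg15 in 7, Ifit3b and Ifi27l2a in 6 each, Ifit2 in 5 and Ifit3 in 4. Their adjusted p then lay between 0.0503 and 0.174. Without descending water 1, 2 or 3 or descending BAPN 4 or 5, 1 gene was called. Without descending BAPN 3 there were 2, without descending BAPN 1 there were 3, and without descending BAPN 2 there were 13. The share over all genes is given below only for the fit without descending BAPN 2. The other counts are therefore not set against calling over all genes.

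Descending BAPN 2 was the library that moved the count most. Irf7, the inducible regulator of the interferon genes, had 4.35, 7.58, 6.29, 3.92 and 5.28 CPM in descending water and 3.92, 8.17, 3.63, 3.62 and 3.52 in descending BAPN. Oasl2, an oligoadenylate synthetase-like protein, had 6.296, 11.4, 7.85, 7.62 and 9.69 against 4.54, 14.1, 5.62, 5.45 and 4.903. In both genes library 2 lay above every other library of either descending group. Rtp4, a chaperone induced by interferon, had 5.53, 6.898, 4.998, 4.46 and 4.602 against 2.92, 6.97, 3.22, 2.35 and 2.57 CPM. Bst2 had 31.8, 36.8, 30.5, 29.3 and 28.6 against 24.2, 47.6, 29.5, 24.5 and 21.7. For Rtp4 the other 4 BAPN libraries lay below all water libraries, and for Bst2 3 of those 4 did. Zbp1, a sensor of Z-form nucleic acid that can start necroptosis, had 1.48, 3.02, 1.18, 0.429 and 1.66 against 1.34, 9.12, 0.351, 0.861 and 0.238 CPM, so 1 library held most of the group's counts.

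Without descending BAPN 2, 12 genes were called lower and 1 higher, and all 6 of the calls above were among them. The 7 added were Irf7 at -0.57 (SE 0.17), Stat2 at -0.41 (SE 0.11), Oasl2 at -0.73 (SE 0.15), Rtp4 at -0.94 (SE 0.18), Xaf1 at -0.45 (SE 0.13), Bst2 at -0.33 (SE 0.08) and Ifi35 at -0.25 (SE 0.08), with edgeR adjusted p from 0.00104 (Rtp4) to 0.0337 (Ifi35). With that library left out the median of the 32 was -0.44 and 10.2% of all genes were called. This library was left out after its values had been seen. Descending water 2, the highest of its own group for 25 of the 32 (19.3% of all tested genes), was kept in that fit. With descending water 2 left out instead, 1 gene was called, as given above.

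**Figure D3:**
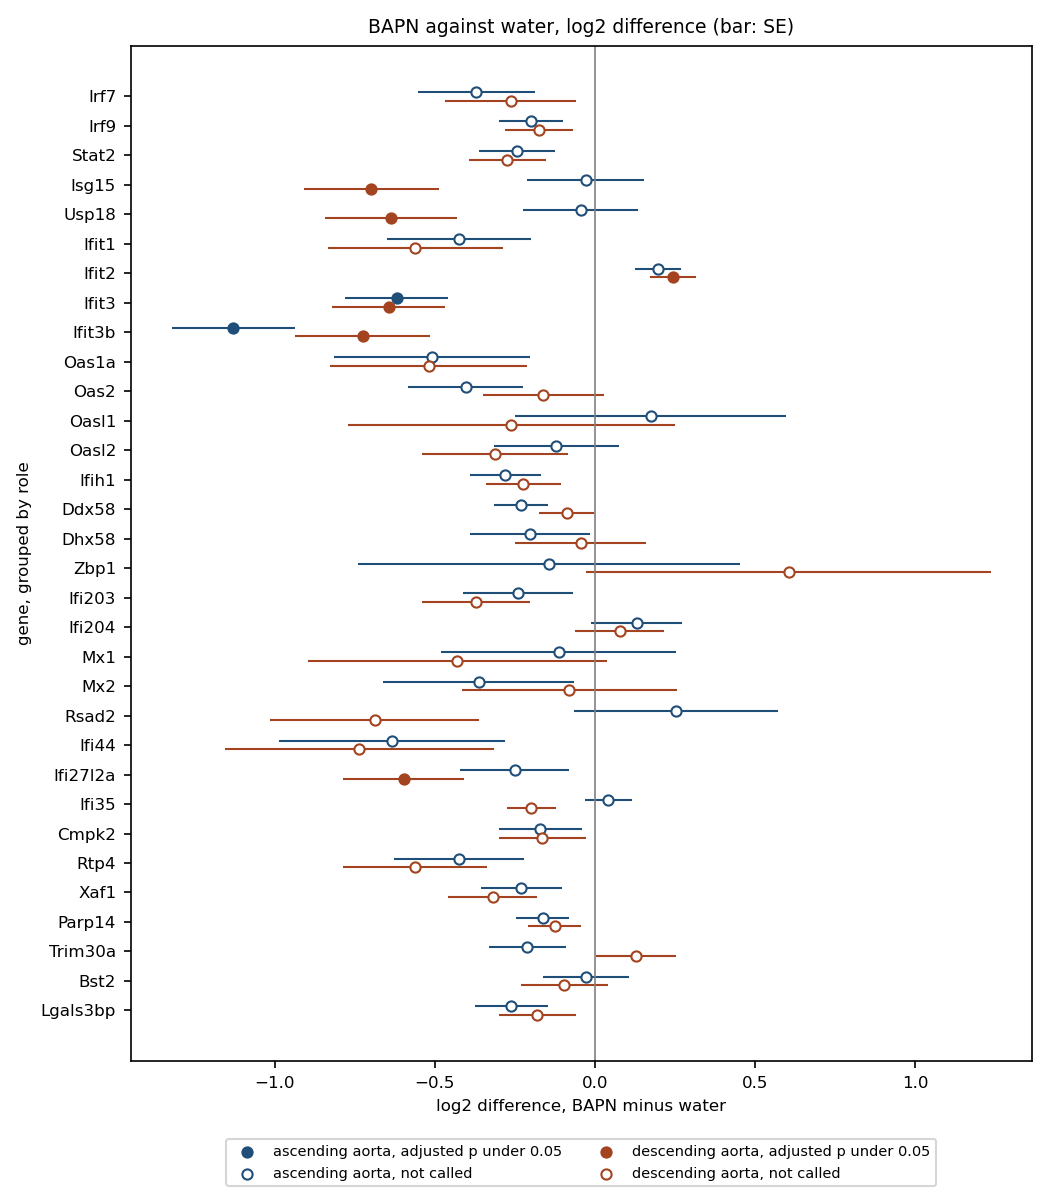
Log2 difference between BAPN and water (horizontal axis, bars are 1 SE) for the 32 tested genes by role, in the ascending (blue) and descending (brown) aorta, with filled points for adjusted p under 0.05. Most points lie left of 0 (27 and 28 of 32), Ifit2 lies right of it in both regions, and Zbp1 has a wide bar in both.

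The difference of the BAPN effect between regions was tested directly. None of the 32 genes was called by edgeR, nor by DESeq2, and 0% of all 15543 genes were called by edgeR (14 genes by DESeq2). At an unadjusted p under 0.05 there were 4 of the 32 (12.5%) by edgeR, against 6.88% of all genes, and 4 by DESeq2. These 4 by edgeR were Isg15 at -0.67 (SE 0.28), Usp18 at -0.59 (SE 0.27), Rsad2 at -0.94 (SE 0.46) and Ifi35 at -0.24 (SE 0.11), with adjusted p of 0.623 to 0.726. Rsad2, which encodes viperin, an enzyme that makes a chain-terminating nucleotide, had 1.25, 1.83, 1.57, 3.36 and 2.27 CPM in ascending water and 3.35, 2.38, 1.83, 1.21 and 3.48 in ascending BAPN. In the descending aorta it had 1.89, 4.43, 1.505, 1.72 and 3.87 and 1.57, 2.09, 1.11, 1.78 and 1.67. Its libraries overlapped in both regions, and with a term for the pseudogene set its difference of effects turned to 0.22 (SE 0.50). For Ifit3 the difference of effects was -0.03 (SE 0.24) and for Ifit3b 0.40 (SE 0.29).

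Between regions the genes differed more. Under water 18 of the 32 were lower in the descending than in the ascending aorta and none was higher, where 27.3% of all genes were called (12.1% higher and 15.2% lower). The median of the 32 was -0.59, against 0.01 over all genes. Under BAPN 15 were lower and none higher, where 29.8% of all genes were called (14.2% higher and 15.6% lower), and the median was -0.51. These comparisons share no library. In both, 13 genes were called lower, which is 72.2% of the water calls and 86.7% of the BAPN calls. The same overlap over all genes was not counted, so these shares are not read as particular to the interferon genes. Libraries of the 2 regions did not overlap, with the descending ones lower, for 13 of the 32 under water (11.7% of all genes) and for 7 under BAPN (12.1%). None of the 32 had descending libraries all higher (8.37% and 9.37% of all genes). Summed over the 33 genes, levels were 391 to 471 CPM in ascending water, 326 to 406 in ascending BAPN, 289.5 to 379 in descending water and 248 to 367 in descending BAPN.

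Among the transcription factors, Irf7 had 9.47, 10.4, 10.9, 10.4 and 10.03 CPM in ascending water, above every descending water library, log2 -0.91 (SE 0.19, edgeR adjusted p = 0.000514). In ascending BAPN it had 7.29, 6.66, 9.56, 6.79 and 9.33, and of the descending BAPN libraries only library 2 reached that range, log2 -0.80 (SE 0.20, edgeR adjusted p = 0.00264). Irf9, the DNA-binding part of the complex with Stat2, differed by -0.47 and -0.44 under water and BAPN, and was called in both. Stat2 was not called, at -0.21 and -0.24. With the replicate number as a block, Stat2 was called under BAPN (-0.25, SE 0.09, adjusted p = 0.0415).

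Isg15 and Usp18 had no overlap between regions under either treatment. Isg15 had 5.03, 6.78, 5.01, 6.09 and 4.25 CPM in ascending water and 5.67, 5.44, 7.26, 3.64 and 4.48 in ascending BAPN, all above the descending libraries of the same treatment. Its regional differences were -0.67 (SE 0.19, adjusted p = 0.00915) under water and -1.34 (SE 0.20, adjusted p = 9.8e-06) under BAPN. Usp18 differed by -0.57 and -1.17. In the Ifit family, Ifit1 had 3.79, 2.83, 3.06, 1.99 and 3.25 CPM in descending water and 1.401, 3.04, 1.58, 1.38 and 2.67 in descending BAPN, against the ascending values above, log2 -1.25 (SE 0.24, edgeR adjusted p = 0.000193) and -1.39 (SE 0.26, adjusted p = 0.00014). Ifit3 differed by -0.80 and -0.83 and was called in both. Ifit3b was called under water at -0.92 and not under BAPN, at -0.52 (SE 0.22, adjusted p = 0.0719). Ifit2 was not called, at -0.15 and -0.10.

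Of the oligoadenylate synthetase family Oasl2 was called. It had 17.8, 17.8, 20.5, 22.4 and 19.3 CPM in ascending water and 18.1, 17.9, 22.9, 15.7 and 15.2 in ascending BAPN, and no descending library of the same treatment reached these levels. Its differences were -1.20 (SE 0.21, adjusted p = 5.67e-05) and -1.39 (SE 0.21, adjusted p = 1.22e-05). Oas1a lay near 0, at 0.03 and 0.02, and shares 40.9% of its 100-base windows with Oas1g. Of the RNA sensors Ifih1 (MDA5) was lower under both treatments, at -0.50 and -0.44. Ddx58 and the regulator Dhx58 (LGP2) were lower under water, at -0.29 and -0.65. Under BAPN Dhx58 was -0.49 (adjusted p = 0.0637), and it was called with the replicate block (adjusted p = 0.0479). The DNA sensors Ifi203 and Ifi204 were not called, with Ifi204 on the higher side, at 0.34 and 0.29. Under water Ifi204 was called higher in the descending aorta without ascending water 2 (0.41, adjusted p = 0.03999) or descending water 3 (0.41, adjusted p = 0.0423). Mx2 was called under water at -0.89 and Mx1 under BAPN at -1.36. Both are low, at most 2.89 CPM in any library.

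Among the other effectors, Lgals3bp, a secreted glycoprotein, had 34.6, 43.8, 43.7, 48.1 and 43.8 CPM in ascending water and 22.5, 28.3, 25.9, 24.5 and 19.1 in descending water with no overlap, log2 -0.83 (SE 0.12, edgeR adjusted p = 2.65e-06). Under BAPN it had 34.98, 36.7, 41.4, 33.5 and 31.9 and 23.1, 28.7, 18.9, 17.96 and 17.6, -0.75 (SE 0.12, adjusted p = 1.53e-05). Xaf1, which opposes an inhibitor of apoptosis, had 9.47, 9.22, 8.54, 10.2 and 8.798 against 5.58, 6.71, 5.59, 6.496 and 4.54 CPM under water, -0.68 (SE 0.13, adjusted p = 0.000195), and was -0.77 under BAPN. For both genes every ascending library was above every descending library of the same treatment. Ifi27l2a had 28.6, 31.5, 27.9, 47.3 and 41.3 CPM in ascending water and 29.1, 28.5, 27.2, 32.7 and 30.6 in ascending BAPN, -0.91 (SE 0.18, adjusted p = 0.000222) and -1.26 (SE 0.18, adjusted p = 5.84e-06). Rtp4 was lower under both, at -0.63 and -0.77, as was Ifi44, at -1.01 and -1.11. Trim30a, a ubiquitin ligase family member, was called under water (-0.37) and Ifi35, a partner of Nmi, under BAPN (-0.24). Bst2, Cmpk2, Parp14 and Rsad2 were called under neither treatment. Zbp1 was not called either, and was 0.09 (SE 0.61) under BAPN.

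Under BAPN the counts again turned on library 2. Without it 22 genes were lower in the descending aorta, the 15 above and Bst2, Cmpk2, Dhx58, Ifit3b, Mx2, Stat2 and Zbp1, where 28.1% of all genes were called. Zbp1 then went to -1.67 (SE 0.47, adjusted p = 0.00784), with its sign changed. Without ascending BAPN 4 as well, 23 genes were called (26.3% of all genes), Oasl1 being added, and 0 of the 32 in the difference of effects. Under water 13 of the 18 calls held on leaving out each library, and under BAPN 13 of the 15. Those lost without at least 1 library were Ifi44, Mx2, Rtp4, Trim30a and Usp18 under water and Ifi35 and Ifi44 under BAPN. Within the higher pseudogene set 12 genes were lower in descending water and within the lower set 15. These fits called 16.5% and 16.9% of all genes. With a term for the set the water count was 20 (27.6% of all genes) and the BAPN count 7 (17.7%): Ifit3, Isg15, Usp18, Oasl2, Ifi27l2a, Xaf1 and Lgals3bp. In the BAPN groups set and region coincide, so the term was estimated from the water libraries alone. That fit cannot part set from region under BAPN. Of the calls lost under BAPN, Mx1 was then -1.42 (SE 0.60), Ifit1 -0.96 (SE 0.34, adjusted p = 0.0501) and Irf7 -0.74 (SE 0.28), while Rtp4 was -0.42 (SE 0.29) and Ifi44 -0.65 (SE 0.55).

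**Figure D4:**
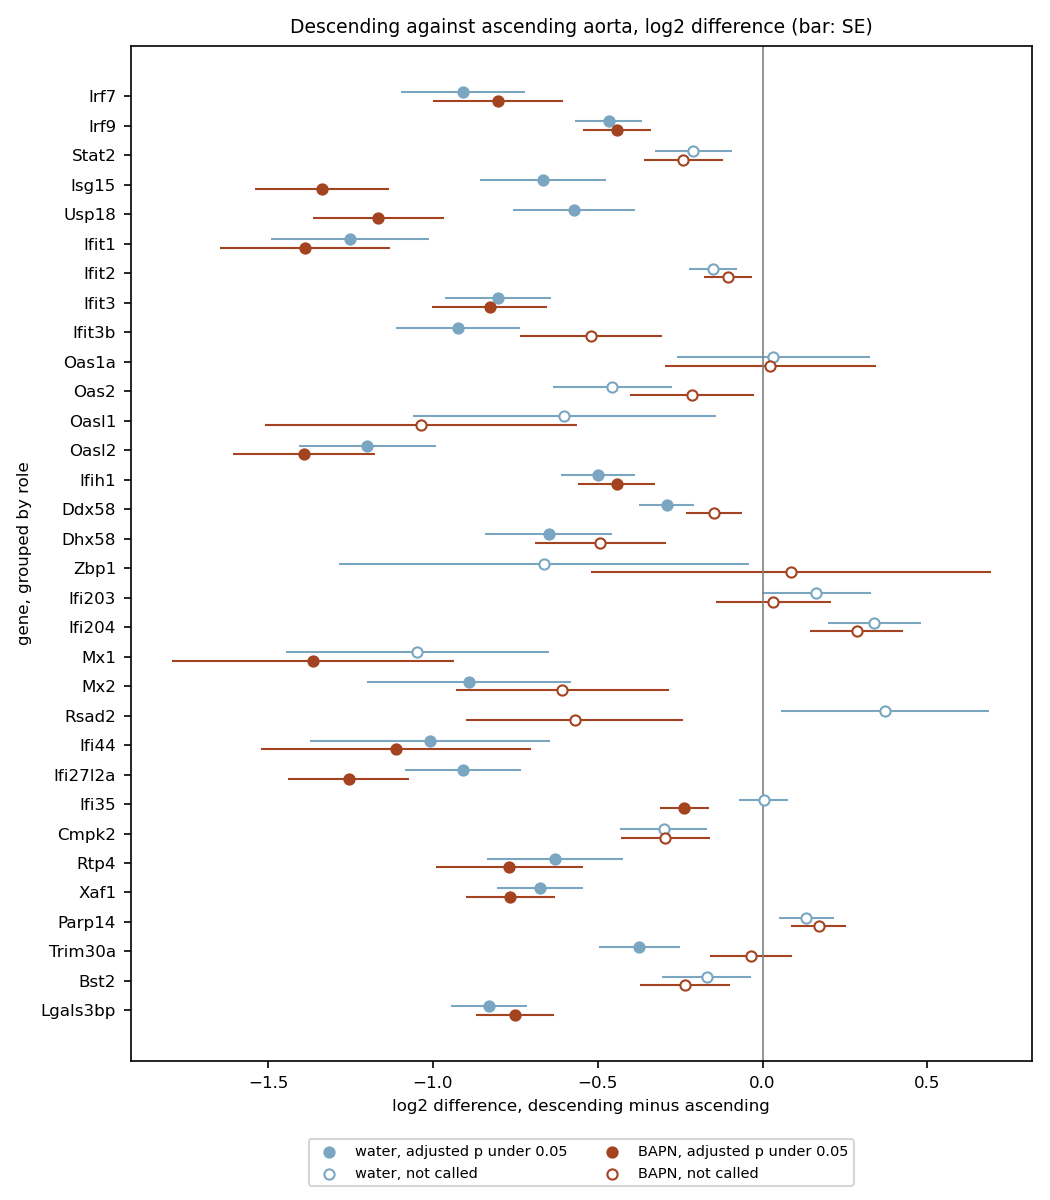
Log2 difference between the descending and ascending aorta (horizontal axis, bars are 1 SE) for the 32 tested genes by role, under water (light blue) and BAPN (brown), with filled points for adjusted p under 0.05. All filled points (18 under water and 15 under BAPN) lie left of 0, led by Oasl2, Isg15, Ifit1, Mx1 and Ifi27l2a under BAPN.

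Markers of other cells differed between regions as well, and their part in the regional results was not tested. Of the mesothelial markers 5 of 5 were lower in the descending aorta under both treatments, with sums of 207 to 379 and 215 to 281 CPM in ascending water and BAPN against 1.41 to 11.6 and 0.714 to 12.3. Cardiomyocyte markers were lower in 6 of 6, with sums of 413 to 959 and 652 to 1188 against 64.4 to 76.8 and 67.5 to 79.2. Fibroblast markers were lower in 4 of 6, with sums of 4084 to 4454 and 4014 to 4423 against 2753 to 2958 and 2465 to 3086. Macrophage markers were not lower: 1 of 10 was higher in each comparison, and the sums were 435 to 593, 469.6 to 577, 495 to 676 and 479 to 656 CPM. Of the T cell markers 2 of 4 were lower under water and none under BAPN, and 0 of 5 B cell markers were called. T cell sums were at most 13.5 CPM and B cell sums at most 5.78 in any library. Adipocyte markers went the other way, with 3 of 5 higher in the descending aorta under water and 1 under BAPN, and sums of 17.9 to 66.1 and 33.4 to 86.8 against 74.9 to 176 and 68.7 to 196. The plasmacytoid dendritic list, cells known as a source of type I interferon, had sums of 7.22 to 17.6 and 12.6 to 24.99 against 1.66 to 2.33 and 1.78 to 2.35. Most of that was Cox6a2, a gene of heart muscle too, with means of 10.1 and 15.2 against 0.165 and 0.139 CPM. Siglech, the defining marker of these cells, was not called under water, at 0.14 (SE 0.26, edgeR adjusted p = 0.752). Under BAPN it was called higher in the descending aorta, at 0.81 (SE 0.28, edgeR adjusted p = 0.0292), opposite to the list sum.

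Markers also moved with BAPN. Summed smooth muscle markers were higher in every BAPN library than in every water library of the same region (the ranges are given above), and 1 of the 6 was called, Acta2 (smooth muscle actin), at 0.32 (SE 0.04, adjusted p = 5.39e-05) in the ascending and 0.34 (SE 0.04, adjusted p = 1.77e-05) in the descending aorta. The fibroblast marker Dpt was lower in the descending aorta, -0.32 (SE 0.07, adjusted p = 0.00467), and the cardiomyocyte marker Tnnt2 was higher in the ascending aorta, 0.42 (SE 0.12, adjusted p = 0.0387). None of the macrophage, plasmacytoid dendritic, T cell, B cell, endothelial, adipocyte and mesothelial markers tested was called for BAPN. The part of these shifts in the BAPN differences of the interferon genes was not tested.

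The rest of the pathway is given in order of signalling. Of 18 type I ligand genes 15 had 0 counts in all 20 libraries, and Ifne, Ifnk and Ifnz together had 13. None could be tested at this depth. Of the receptor chains Ifnar1 and Ifnar2 and the kinases Jak1 and Tyk2, none was called for BAPN in either region. Ifnar2 was lower in the descending aorta, -0.19 (SE 0.07, adjusted p = 0.0254) under water and -0.20 (SE 0.07, adjusted p = 0.0193) under BAPN. Tyk2 was lower under water, -0.17 (SE 0.06, adjusted p = 0.0264). Of 12 genes that act upstream of ligand production, the kinase Ikbke, which activates Irf3 and Irf7, was lower in the ascending aorta after BAPN, from 16.1 (SD 1.72) to 12.7 (SD 1.44) CPM, -0.35 (SE 0.10, adjusted p = 0.0358). No other was called for BAPN. Between regions Irf5, an inducer of inflammatory cytokines, was lower in the descending aorta, -0.90 (SE 0.13, adjusted p = 3.15e-06) and -1.16 (SE 0.13, adjusted p = 8.21e-08), as was Tmem173 (STING, the adaptor of cytosolic DNA sensing), -0.34 (SE 0.09, adjusted p = 0.00596) and -0.40 (SE 0.09, adjusted p = 0.00143). In all, 3 of the 12 were lower and 1 higher in each regional comparison.

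Of 8 negative regulators, 2 were higher after BAPN in each region and none was lower. In the ascending aorta these were Foxo3, a repressor of Irf7, from 111 (SD 3.69) to 129 (SD 4.76) CPM, 0.22 (SE 0.06, adjusted p = 0.0333), and the phosphatase gene Ptpn11, 0.14 (SE 0.04, adjusted p = 0.0361). In the descending aorta they were Foxo3, 0.20 (SE 0.06, adjusted p = 0.0386), and Ptpn2, another phosphatase gene, from 22.8 (SD 1.103) to 26.9 (SD 2.51), 0.24 (SE 0.07, adjusted p = 0.0182). Of 30 further interferon-stimulated genes tested, 0 were called in the ascending aorta and 2 were lower in the descending aorta: Parp12, -0.26 (SE 0.07, adjusted p = 0.021), and Dtx3l, -0.29 (SE 0.08, adjusted p = 0.0252). Their medians were -0.11 and -0.08. Between regions 7 of the 30 were lower under water and 7 under BAPN, with Phf11d at -0.68 (SE 0.09, adjusted p = 9.11e-07) and Ifitm3, which blocks virus entry, at -0.44 (SE 0.06, adjusted p = 9.79e-07) under water. Under BAPN 1 was higher, Ifitm2, 0.23 (SE 0.06, adjusted p = 0.00219).

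Of 10 genes of class I antigen presentation, Tapbp (tapasin, which loads peptide) was lower in the ascending aorta after BAPN, from 178 (SD 5.93) to 155 (SD 6.42) CPM, -0.21 (SE 0.05, adjusted p = 0.0114), and none was called in the descending aorta. Between regions none was called under water and 1, the transactivator Nlrc5, was higher in the descending aorta under BAPN, 0.88 (SE 0.28, adjusted p = 0.0175). It had 16.3 CPM in descending BAPN 2 against 4.93 to 7.56 in the other 4. Of 20 tested genes of the interferon gamma list none was called for BAPN in either region, with medians of -0.09 and 0.18. Between regions 2 were lower under water, Irf8, -1.04 (SE 0.16, adjusted p = 1.46e-05), and the class II gene H2-Eb1, -1.03 (SE 0.35, adjusted p = 0.0264), and under BAPN 1 was lower and 1 higher. Ifng itself had 2 counts over all libraries. This list marked out descending BAPN 2 as well: its sum there was 1114 CPM, against 397 to 439.8 in the other 4, and the library was the highest of its group for 18 of the 20. Gbp4, a guanylate-binding protein, had 70.3 CPM there against 7.52 to 11.01. Cd74, the class II invariant chain, had 242 against 31.8 to 51.8, and Ciita, the class II transactivator, 10.7 against 0.918 to 2.02. These 3 were picked after their values were seen. In the other groups too the list was highest in the library numbered 2, at 704 CPM in ascending water, 807 in ascending BAPN and 650.5 in descending water. The class I sum in descending BAPN 2 was 1682 against 1125 to 1242. In the same library macrophage markers were the highest of the group for 9 of 10 genes, with a sum of 656 CPM against 479 to 582, and neutrophil markers for 2 of 2, with a sum of 5.13 against 0.952 to 1.46. T cell markers were highest for 1 of 4, with 4.11 against 2.81 to 4.16. NK cell markers, of which none was tested, summed to 1.49 against 0.0574 to 0.351, and Schwann cell markers were highest for 5 of 5, with 344 against 318 to 335. The part of these cells in that library's levels was not tested.

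**Figure D5:**
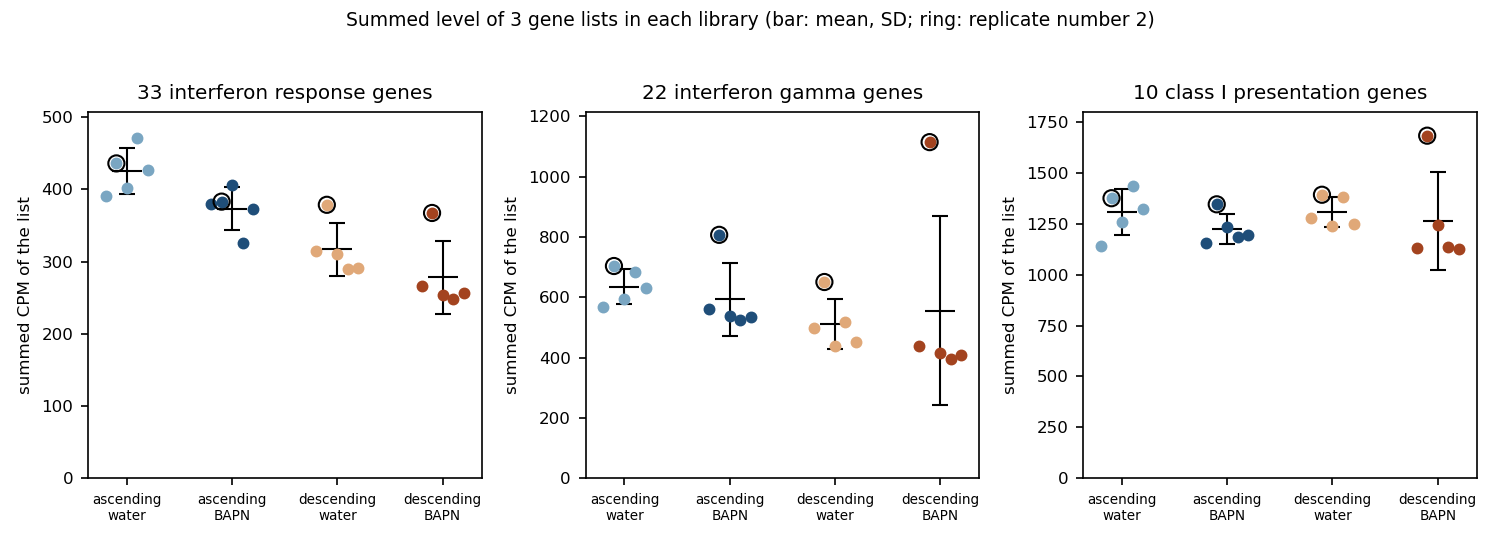
Summed CPM (vertical axes from 0) of the 33 interferon response genes, 22 interferon gamma genes and 10 class I presentation genes in each library of the 4 groups, with the mean and SD of 5 libraries and rings on the libraries numbered 2. Descending BAPN 2 stands above its group in all 3 panels, and the library numbered 2 is the highest of each group for the interferon gamma genes.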

How the data were processed

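Counts per gene of 20 bulk RNA-seq libraries were deposited by the authors as whole numbers, without normalization. Per the submitters' processing notes, fastp, STAR 2.5, HTSeq 0.6.1 and the mm10 build were used. The annotation and the strand setting of the counting are not given in the sources used here. Per the labels, libraries were made from 1 µg of total RNA with a NEBNext Ultra kit. Groups were taken from the titles. Symbols were taken from GENCODE M21, in which 54495 of the 54532 identifiers were found.

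The filterByExpr filter (10 counts at the least, 15 in all) kept 15543 genes, which were scaled by TMM. A single edgeR 4.0.16 quasi-likelihood model of the 4 groups (16 residual degrees of freedom, R 4.3.3) gave the 5 contrasts, with Benjamini-Hochberg adjustment over all genes tested. SE is the absolute log2 difference divided by the square root of F. The procedure was tested on simulated data. Python 3.11.15, pandas 2.3.3 and matplotlib 3.10.9 served for levels and plots.

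The genes, the other lists and the split by pseudogene levels were chosen with earlier results of these data known. Named with values are genes called in any comparison, genes with an outlying library, the 2 genes of each role with the highest level per kb, the 5 genes farthest from the group median in a library that stands apart, and, of other lists, up to 4 called for BAPN or 2 between regions. Ddx58 without overlap, Rsad2, the other genes at an unadjusted p under 0.05 in the difference of effects and Ifitm2 were added after their values were seen. Alternatives were other scalings and filters, DESeq2 1.42.0, limma-voom with library weights (limma 3.58.1), robust estimation, fits to the groups compared, a replicate block, the pseudogene sets and leaving out libraries. Leaving out ascending BAPN 4 with descending BAPN 2, and the block in the BAPN groups alone, were added after the data were seen. Same-numbered libraries deviated together in all 5 pairs only between ascending BAPN and descending BAPN (r from 0.103 to 0.185 across genes, each highest for its own number). The block was therefore looked at mainly for that comparison. The highest value of any same-numbered pair was that of descending water 2 with descending BAPN 2 (r = 0.244). Between those groups the other numbers were not highest for their own. Any pairing is read from these correlations in the same counts. It is not settled, since the labels do not say what the numbers share. One item of the wider pathway is not reported here.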

Additional observations from a re-analysis of the deposited data

Results flagged for a closer look

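In 9 of 128 sets of 5 libraries (32 genes in 4 groups), 1 library lay farther from the other 4 than Dixon's 95% value of 0.71 allows. Chance gives about 1 in 20, or 6.4, if values are normal. CPM values need not be normal, and the sets come from the same 20 libraries, so they are not independent. The 9 beside 6.4 is a description and not a test. Of the 9, 6 were high and 3 low, and 5 were in descending BAPN 2: Zbp1 at 9.12 CPM (next 1.34), Irf7 at 8.17 (next 3.92), Oasl2 at 14.1 (next 5.62), Rtp4 at 6.97 (next 3.22) and Ifit3 at 11.9 (next 6.86). In ascending BAPN 4, Ifit3 was low at 8.88 CPM (next 13.6) and Ifit1 at 2.98 (next 5.64). Ifih1 was low in ascending water 1, at 9.92 CPM (next 13.3). Oasl1, a synthetase-like gene, was high in descending water 2, at 0.678 CPM (next 0.322).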

How the results depend on the processing

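In the ascending aorta 2 genes were called for BAPN, and 1 to 3 on leaving out a library. By limma-voom Ddx58 was called lower there as well (-0.24, SE 0.07, limma-voom adjusted p = 0.037). Within the higher pseudogene set 5 were called. In the descending aorta 6 were called, with 1 to 13 on leaving out a library, 3 by limma-voom, 3 in a fit to the groups compared, 2 with a term for the set and 1 within the lower set. Between regions under water 18 were called (13 to 20 on leaving out a library, 13 without ascending water 4). Under BAPN 15 were called (13 to 22, and 7 with the set term, which was estimated from the water libraries alone). Without ascending BAPN 4 and descending BAPN 2 together, 13 were called for BAPN in the descending aorta and 23 between regions under BAPN. The cause of these shifts was not tested. Where no share over all genes is given here or above, these counts are not set against calling over all genes. For the difference of effects 0 of the genes tested were called in each alternative that could give it (all but the fits within a pseudogene set, to the groups compared and to the BAPN groups alone), and over all genes 0 by edgeR, 14 by DESeq2 and 41 with no low-count filter.

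With the replicate block 2, 6, 21 and 17 genes were called in these 4 comparisons and 0 in the difference of effects. The 6 exchanged Usp18 (adjusted p = 0.0589) for Stat2 (0.0487), and the 21 included Ifi204 as higher in the descending aorta (0.33, adjusted p = 0.049). Between regions under BAPN the block added Stat2 and Dhx58 and changed no other call. Whether the block is right for that comparison is not settled by the labels. In a fit to the BAPN groups alone 16 were called, with Stat2 at an adjusted p of 0.0347 and Dhx58 at 0.0571. Shares over all genes are not given for these block fits. Over the called genes and the alternatives that leave out no single library, a call was lost in 19 of 72 values for BAPN in the descending aorta, 12 of 234 between regions under water, 9 of 180 under BAPN and 0 of 24 in the ascending aorta, and 0 of these changed sign.

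Some genes not called changed sign, among them Rsad2 for the difference of effects (0.22 with the set term). Bst2 for BAPN in the descending aorta was 0.001 (edgeR adjusted p = 1) without descending BAPN 5. Zbp1 between regions under BAPN was 0.09, and -0.94 by limma-voom, -0.33 with the replicate block, -0.50 with the block in the BAPN groups alone, -0.09 without ascending BAPN 4, -0.07 without ascending BAPN 5, -1.67 to 0.40 on leaving out each library (lowest without descending BAPN 2) and -1.84 without that library and ascending BAPN 4. Depth limits the low genes: Mx1 and Oasl1 are near 1 CPM or less, and Oas3 and the ligands could not be tested.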
